A study of Equus caballus with 68 samples.

Results

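Growth factors of the VEGF, PDGF and HGF families and their receptors were followed in equine bone marrow mononuclear cells (BMNC) kept in synovial fluid. The set was defined by gene symbol as 10 genes: the ligands VEGFA, VEGFB, PDGFA, PDGFB, PDGFC and HGF, the VEGF receptors FLT1 and KDR, and the co-receptors NRP1 and NRP2. Of these, 9 were found among the 30371 entries of the expression table, and PDGFA, for which no entry carried the symbol, was not analysed here. BMNC of 8 Thoroughbred horses aged 3 to 9 years were sequenced uncultured (0 hours, 8 libraries) and after culture in undiluted autologous fluid, either normal synovial fluid (SF) or fluid from a joint inflamed with lipopolysaccharide (ISF). Both fluids gave 7 libraries each at 48 hours and 10 days and 8 each at 96 hours and 6 days, 68 libraries in all. Each library came from 1 horse, and each culture library from 1 well. The spread between libraries therefore holds that between horses together with that of wells and library preparation, which cannot be told apart. The cells of a horse met only that horse's own fluids. The fluid had been cleared of its cells, and the ISF stands for an acute, induced synovitis. The SF came from middle carpal joints and the ISF from radiocarpal joints, so inflammation and joint of origin cannot be told apart.

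VEGFA is the main signal for new blood vessels, and its RNA is induced when oxygen is low. It acts through the receptor tyrosine kinases FLT1 and KDR, which are best known from endothelial cells, although FLT1 is also carried by monocytes. VEGFB binds FLT1 and not KDR, PDGFB and PDGFC call mesenchymal cells through PDGFRA and PDGFRB, HGF acts on epithelial and other cells through MET, and the neuropilins NRP1 and NRP2 are co-receptors shared by VEGF ligands and class 3 semaphorins.

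Values are GeTMM, a measure per kilobase of gene that the authors scaled across libraries, so that levels can be compared between genes. The libraries held 15653729 to 35972452 reads on genes (median 22253890). Tests covered the 14570 genes with at least 0.5 GeTMM in 7 or more libraries, and fold changes are differences of log2(GeTMM + 1), which understate the change of low genes. Of the 9 members, 7 passed this filter, and FLT1 and KDR did not. In bulk RNA, fewer cells of a type and less RNA per cell cannot be told apart. Some libraries stood apart. By their gene profile, 66 of the 68 libraries were closest to the horse they were labelled with, and at 96 hours the library labelled Dealings in ISF was closest to Dreamer and that labelled Dreamer closest to Dealings. The SF library of Moon at 6 days was the highest of its group for VEGFB and the lowest for the other tested members. The SF library of Lurie at 10 days had a summed level of 4075 GeTMM over 7 fibroblast or stromal genes, against a median of 28.2 in its group.

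**Figure D1:**
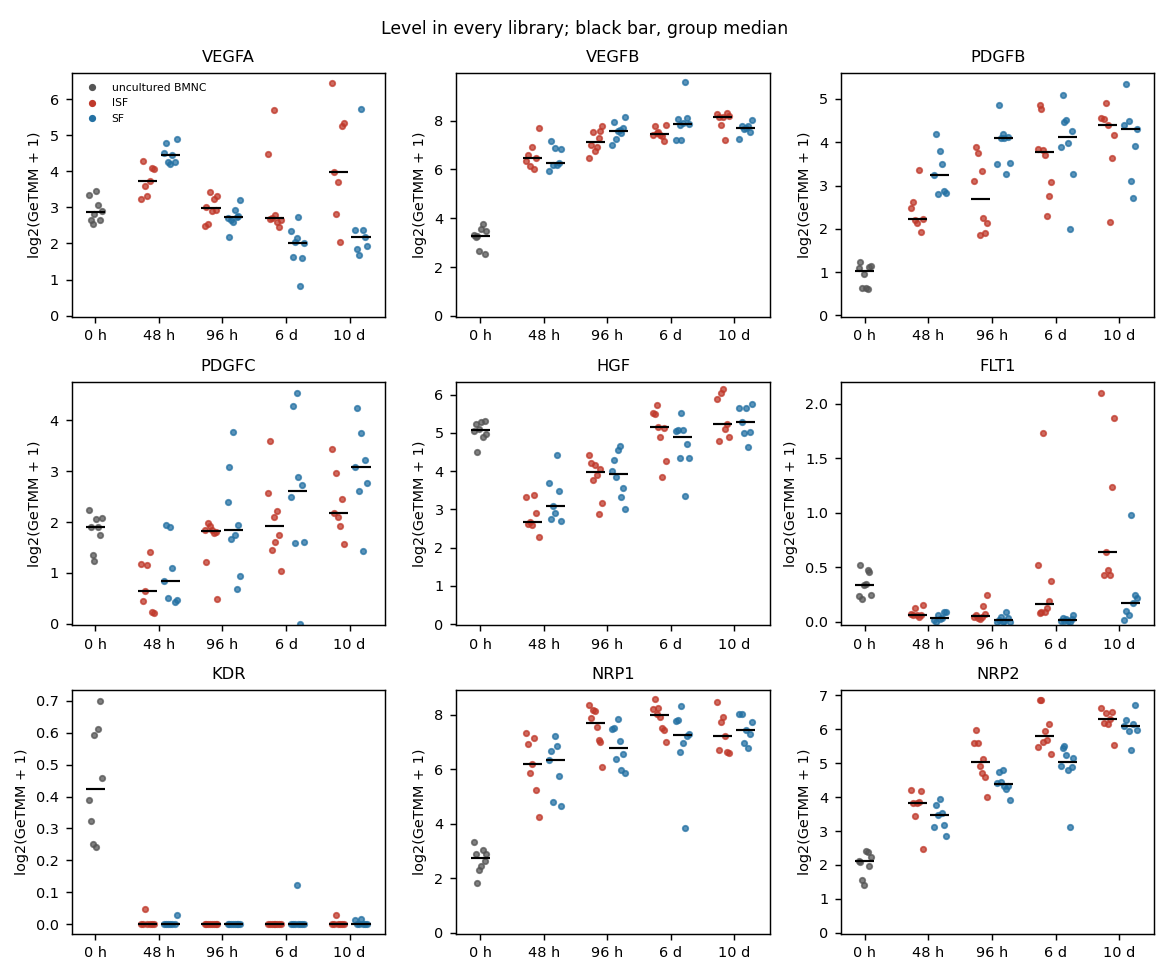
Level of each member in every library, as log2(GeTMM + 1), by time in culture. Grey points are uncultured BMNC, red points ISF and blue points SF, black bars are group medians, and the vertical scale differs between panels. VEGFB, NRP1, NRP2 and PDGFB lie higher in every culture group than at 0 hours, KDR lies at or near 0 in the cultures, and VEGFA and FLT1 spread widely in ISF at 6 and 10 days.

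Entry into culture changed most of the set. From 0 to 48 hours, 6 of the 7 tested members changed in ISF, 4 higher (VEGFB, PDGFB, NRP1 and NRP2) and 2 lower (HGF and PDGFC), beside 52.7% of all genes tested (25.3% higher and 27.4% lower). In SF, 6 changed over the same interval, VEGFA, VEGFB, PDGFB, NRP1 and NRP2 higher and HGF lower, beside 45.4% of all genes (22.3% higher and 23.1% lower). The median log2 fold change of the 7 members was 1.502 in ISF and 1.55 in SF, while that of all genes was -0.03 and -0.01. Both comparisons share the 0 hour libraries.

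Fewer members were called over the later intervals in this fit. Between 48 and 96 hours, HGF, NRP1 and NRP2 rose in ISF, beside 19% of all genes called (8.54% higher and 10.4% lower), while in SF NRP2 and VEGFB rose and VEGFA fell, beside 27.3% (11.5% higher and 15.8% lower). With a term for horse in the fit, all 7 members were called in that SF interval, with PDGFC (FDR = 0.0090), HGF (0.0044), PDGFB (0.014) and NRP1 (0.032) added by limma. In ISF that fit added PDGFC from 48 to 96 hours (limma FDR = 0.032) and PDGFB from 96 hours to 6 days (FDR = 0.017). Both of these ISF intervals use the 96 hour libraries labelled Dealings and Dreamer, whose horse labels are in doubt. Between 96 hours and 6 days, HGF and NRP2 rose in ISF, beside 6.38% of all genes (2.83% higher and 3.54% lower), and no member was called in SF, beside 2.05% (0.432% higher and 1.61% lower), where 1 had an unadjusted p under 0.05. With horse in the limma fit HGF was called in that SF interval (FDR = 0.011). Between 6 and 10 days no member was called in ISF, beside 10.5% of all genes (5.09% higher and 5.44% lower), where 2 had an unadjusted p under 0.05. NRP2 rose in SF, beside 4.78% (3.19% higher and 1.59% lower), joined by HGF with horse in the limma fit (FDR = 0.037).

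The fluids differed in fewer members. At 48 hours none of the 7 was called between ISF and SF, against 1.68% of all genes (0.872% higher and 0.81% lower), and 1 had an unadjusted p under 0.05. At 96 hours PDGFB was lower in ISF, beside 10.5% of all genes called (6.16% higher and 4.3% lower). At 6 days VEGFA and NRP2 were higher in ISF, beside 30.2% (16.7% higher and 13.6% lower), and at 10 days VEGFA was higher, beside 20.8% (9.95% higher and 10.8% lower). With 2 of 7 and 1 of 7 called, the members' share was close to that of all genes at 6 days and at 10 days. The ranges of the fluids overlapped for all 7 tested members at each time, whereas 1.06%, 2.11%, 3.34% and 4.96% of all genes did not overlap at 48 hours, 96 hours, 6 days and 10 days. Within horses, 8 of 28 combinations of a tested member and a time had the same direction in every horse, 4 with ISF higher and 4 with SF higher. Of all genes, 5.78%, 8.7%, 8.72% and 9.52% had ISF higher in every horse at the 4 times, and 6.61%, 7.07%, 6.16% and 10.6% had SF higher.

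Markers of other cells moved at the times at which VEGFA and NRP2 were called. At 6 days 5 of 5 T cell, 4 of 4 B cell and 5 of 6 neutrophil precursor genes were lower in ISF, beside 13.6% of all genes. At 10 days 5 of 5, 4 of 4 and 3 of 6 were, beside 10.8%. The summed T cell level was 8.57 to 47.3 GeTMM in ISF and 28.6 to 228 in SF at 6 days, and 4.33 to 14.8 in ISF and 23.5 to 199 in SF at 10 days. For B cell genes it was 1.29 to 29.6 and 11.8 to 115 at 6 days, and 1.42 to 10.2 and 6.10 to 139 at 10 days. For neutrophil precursor genes it was 2.76 to 2393 and 89.4 to 4799 at 6 days, and 0.759 to 63.7 and 2.15 to 1648 at 10 days. None of these genes was at 0 throughout any of the 4 groups, and their part in the VEGFA and NRP2 differences was not tested.

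**Figure D2:**
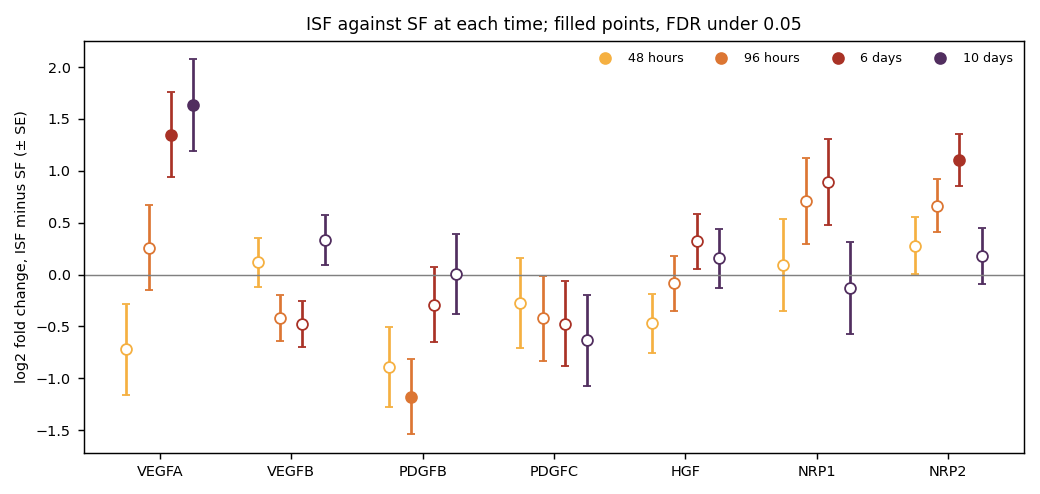
Log2 fold change of ISF against SF (vertical axis, mean ± SE from limma) for the 7 tested members at 48 hours, 96 hours, 6 days and 10 days. Filled points passed an FDR of 0.05: PDGFB at 96 hours, VEGFA and NRP2 at 6 days, and VEGFA at 10 days.

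Among the ligands, VEGFA (ENSECAG00000009402) passed the test between the fluids at 6 and 10 days. Uncultured BMNC held 4.86 to 10.0 GeTMM (median 6.27). At 48 hours the level was 8.48 to 18.4 in ISF (median 12.4) and 17.6 to 28.5 in SF (median 20.9). All SF libraries were above every 0 hour library at that time, the 2 fluids overlapped only through the ISF library of Dealings, and SF was above ISF in 7 of 7 horses, a pattern that 6.61% of all genes showed. The difference of the groups was -0.72 (SE 0.44, limma FDR = 0.48) and was called only when the 2 groups were fitted alone (FDR = 0.044).

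By 96 hours the VEGFA level had returned to 4.54 to 9.67 GeTMM in ISF (median 6.85) and 3.52 to 8.18 in SF (median 5.61), within the range of uncultured cells for most libraries. In SF the log2 fold change was -1.76 (SE 0.43, limma FDR = 0.00099). In ISF the value was -0.78 (SE 0.43, FDR = 0.21).

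From 6 days the order of the fluids was the opposite of that at 48 hours. At 6 days VEGFA was 4.48 to 51.1 GeTMM in ISF (median 5.49) and 0.767 to 5.65 in SF (median 3.06), with ISF above SF in 8 of 8 horses (8.72% of all genes). The ISF libraries of Flash (51.1) and Catnip (21.3) were far above the other 6, of which 5 lay within the SF range. The fitted difference was 1.35 (SE 0.41, limma FDR = 0.0090), and without Flash it was 1.03 (FDR = 0.062).

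At 10 days the VEGFA level was 3.09 to 85.6 GeTMM in ISF (median 14.7) and 2.17 to 51.8 in SF (median 3.49). ISF exceeded SF in 5 of 7 horses, the exceptions being Lurie and Moon. The ISF libraries of Catnip (85.6), RimRun (39.1) and Ollie (37.0) were highest, and 1 SF library, that of Lurie (51.8), was far above the other 6, which did not pass 4.23. The fitted difference was 1.63 (SE 0.44, limma FDR = 0.0047). It was 1.23 without Catnip (FDR = 0.058) and 1.34 without RimRun (FDR = 0.051), it lost its call when the 2 groups were fitted alone (FDR = 0.13), and it was 2.16 without the SF library of Lurie (FDR = 3.9e-05). Since that library held 4075 GeTMM of stromal markers, their part in its VEGFA level was not tested.

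The change of the fluid difference itself was tested with an interaction term. For VEGFA the difference between ISF and SF moved by 2.36 on the log2 scale from 48 hours to 10 days (SE 0.62, limma FDR = 0.023), and VEGFA was the only 1 of the 7 members called, beside 2.99% of all genes (1.59% higher and 1.41% lower). The call was lost on leaving out Catnip (1.86, FDR = 0.14), Dealings (2.31, 0.074), Dreamer (2.44, 0.060), Ollie (2.21, 0.11) or RimRun (2.05, 0.11), and when the 4 groups were fitted alone (FDR = 0.077). From 6 to 10 days no member was called, beside 0.226% of all genes (0.0824% higher and 0.144% lower), and 2 had an unadjusted p under 0.05.

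**Figure D3:**
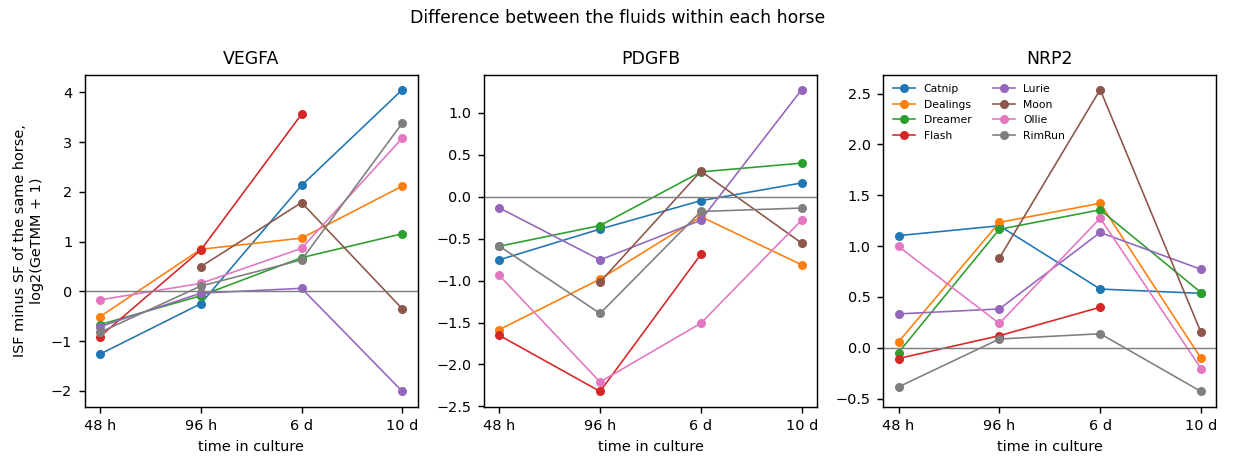
Difference between the ISF and the SF library of the same horse, in log2(GeTMM + 1), for VEGFA, PDGFB and NRP2 at the 4 times, 1 line a horse. VEGFA lies below 0 in 7 of 7 horses at 48 hours and above 0 in 8 of 8 at 6 days, PDGFB lies below 0 in every horse at 48 and 96 hours, and NRP2 lies above 0 in every horse at 96 hours and 6 days.

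VEGFB, the FLT1 ligand linked to fatty acid handling (ENSECAG00000010539), had the largest rise on entry into culture together with NRP1. Uncultured cells held 4.83 to 12.4 GeTMM (median 8.76). At 48 hours the range was 64.5 to 207 in ISF (median 88.3) and 59.9 to 144 in SF (median 76.2), and no culture library at any time overlapped the 0 hour range. The log2 fold change was 3.38 in ISF (SE 0.23, limma FDR = 7.4e-20) and 3.26 in SF (SE 0.23, FDR = 4.7e-19). Of all genes, 5.38% were likewise below every culture library at 0 hours.

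VEGFB went on to medians of 280 GeTMM in ISF and 206 in SF at 10 days. It was lower in ISF in 7 of 8 horses at 96 hours and 6 of 8 at 6 days, and higher in 6 of 7 at 10 days, but no comparison of the fluids was called (limma FDR = 0.25, 0.096 and 0.35). The ranges of the fluids overlapped at every time. With a library median of 166 GeTMM it was the highest of the 9 members, above 93.7% of the tested genes in its mean.

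PDGFB, a growth factor for pericytes and fibroblasts that is also stored in platelets (ENSECAG00000018472), was low in uncultured cells at 0.527 to 1.35 GeTMM (median 1.03). At 48 hours it reached 2.81 to 9.27 in ISF (median 3.71) and 5.98 to 17.3 in SF (median 8.40), above every 0 hour library. From 0 to 48 hours 27.2% of all genes in ISF and 21.5% in SF did not overlap either. The rise was 1.502 in ISF on the log2 scale (SE 0.37, limma FDR = 0.00055) and 2.39 in SF (SE 0.37, FDR = 2.6e-07). SF was above ISF in 7 of 7 horses at 48 hours, with a difference of -0.89 (SE 0.39, FDR = 0.26) that was called with horse in the limma fit (FDR = 0.040).

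At 96 hours PDGFB was 2.64 to 13.7 GeTMM in ISF (median 5.71) and 8.67 to 28.1 in SF (median 16.1). SF was higher in 8 of 8 horses (7.07% of all genes), and in 6 of 6 with Dealings and Dreamer left out. The groups overlapped. The difference on the log2 scale was -1.18 (SE 0.36, limma FDR = 0.025), and it was not called without Flash (-1.01, FDR = 0.12), Ollie (-1.03, FDR = 0.11) or RimRun (-1.14, FDR = 0.058). By 10 days the ranges were 3.46 to 28.8 in ISF and 5.54 to 40.01 in SF, with a difference of 0.01 (SE 0.39).

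Summed platelet markers were below their 0 hour median in culture, and their order between fluids varied. The summed level of 9 platelet or megakaryocyte genes found of 10 was 488 to 1156 GeTMM at 0 hours (median 838), with 48 hour medians of 280 (ISF) and 182 (SF). The 96 hour medians were 158 (ISF) and 292 (SF). The mean of log2(GeTMM + 1) over these genes had the other order at 96 hours, with medians of 1.81 (ISF) and 1.71 (SF). Of 7 platelet genes tested at that time, none was called lower in ISF and ITGB3 was called higher. The sum ranged from 67.3 to 617 in ISF and 45.7 to 593 in SF at 48 hours. At 96 hours it was 33.8 to 786 in ISF and 51.3 to 586 in SF, with GP6 at 0 in every library of these culture groups. The part of platelets in the PDGFB level was not tested.

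PDGFC, whose product must be cut by a protease before it can bind PDGFRA (ENSECAG00000019512), rested on few reads, 0 to 557 a library (median 48.5). It was 1.36 to 3.69 GeTMM at 0 hours (median 2.74), 0.163 to 1.66 in ISF (median 0.552) and 0.348 to 2.86 in SF (median 0.785) at 48 hours. The fall in ISF was called at a log2 fold change of -1.06 (SE 0.42, limma FDR = 0.030), but not without Catnip (FDR = 0.059), Ollie (0.089) or RimRun (0.083). In SF it was -0.79 (FDR = 0.13, and 0.025 with horse in the limma fit).

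The PDGFC spread between libraries then widened in SF, from 0.615 to 12.6 GeTMM at 96 hours and from 0 to 22.2 at 6 days. Flash was the highest at both times and Moon the lowest. In ISF at 6 days it was 1.05 to 11.1. The fluids overlapped throughout, and the differences of -0.27, -0.42, -0.47 and -0.63 at the 4 times were not called (limma FDR = 0.85, 0.59, 0.41 and 0.33).

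HGF, a scatter factor secreted as an inactive precursor (ENSECAG00000011223), fell and recovered. Uncultured cells held 21.6 to 38.3 GeTMM (median 32.7), and at 48 hours the range was 3.89 to 9.38 in ISF (median 5.34) and 5.51 to 20.5 in SF (median 7.42), below every 0 hour library, where 27.2% of all genes in ISF and 21.5% in SF did not overlap. The log2 fold change was -2.22 in ISF (SE 0.27, limma FDR = 4.0e-10) and -1.75 in SF (SE 0.27, FDR = 2.9e-07).

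HGF medians were then 14.8, 34.4 and 36.4 GeTMM in ISF and 14.2, 28.7 and 38.1 in SF at 96 hours, 6 days and 10 days. The rises in ISF were called from 48 to 96 hours (1.00, SE 0.27, limma FDR = 0.0059) and from 96 hours to 6 days (1.18, SE 0.27, FDR = 0.0032). At 10 days the level of 26.6 to 69.6 in ISF and 23.6 to 53.0 in SF overlapped that of uncultured cells. SF was above ISF in 7 of 7 horses at 48 hours, by a difference of -0.47 that was not called (SE 0.28, FDR = 0.47), and at the later times the differences were -0.08, 0.32 and 0.16 (FDR = 0.90, 0.39 and 0.76).

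Of the receptors, FLT1 was scarce (ENSECAG00000021700), with 0 to 329 reads a library (median 7) and 0.5 GeTMM or more in 6 libraries. It was 0.159 to 0.440 GeTMM at 0 hours (median 0.266), and at 48 and 96 hours no library passed 0.187. At 6 days it was 0.0557 to 2.33 in ISF (median 0.119) and 0 to 0.0457 in SF (median 0.0130), so that every ISF library was above every SF library, as in 3.34% of the genes tested. The ISF values there rested on 7 to 329 reads and those in SF on 0 to 6.

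At 10 days FLT1 was 0.349 to 3.27 GeTMM in ISF (median 0.556) and 0.0134 to 0.969 in SF (median 0.125). ISF was higher in 6 of 7 horses, Lurie being the exception. Because FLT1 did not pass the filter, it was tested only in a fit of all 24065 genes above 0. There its log2 fold change was 0.77 at 10 days (SE 0.17, limma FDR = 0.00089, 12.9% of all genes called). It was 0.38 at 6 days (SE 0.16, FDR = 0.096, 17.1% called), and the rise in ISF from 6 to 10 days was 0.62 (SE 0.16, FDR = 0.0099, 6.29% called). The SE is pooled over 9 groups, most with FLT1 near 0, so it does not measure the spread of the groups compared. The SD at 10 days was 1.22 GeTMM in ISF and 0.334 in SF, against 0.0577 in ISF at 96 hours. FLT1 was not refitted with the compared groups alone.

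Libraries with much VEGFA were also those with much FLT1. The 5 libraries with the highest VEGFA were the 5 with the highest FLT1: the ISF libraries of Catnip (3.27 GeTMM of FLT1), RimRun (2.65) and Ollie (1.35) at 10 days and of Flash (2.33) at 6 days, and the SF library of Lurie at 10 days (0.969). No other library passed 0.556. The SF libraries at 48 hours, whose VEGFA was also high, held at most 0.0673 of FLT1. These are levels in the same libraries and carry no test.

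KDR, the main signaling receptor of VEGFA (ENSECAG00000019429), was detected at 0 hours in every library, at 0.182 to 0.623 GeTMM (median 0.342) from 12 to 47 reads. In culture it had no read in 54 of 60 libraries, and the other 6 held 1 to 10 reads. In the fit of all 24065 genes the fall to 48 hours was called in both fluids (limma FDR = 3.5e-18 in ISF, beside 36.2% of genes, and 3.6e-18 in SF, beside 31.1%). No fold change is given because the culture groups lie at or near 0. For the same reason the pooled spread behind these FDRs is near 0, and their size does not measure the spread between horses. The SD at 0 hours was 0.166 GeTMM. The sum of 10 endothelial markers was 149 to 188 GeTMM at 0 hours. It was 94.1 to 158 in ISF and 67.5 to 126 in SF at 48 hours. At 10 days it was 39.3 to 65.3 in ISF and 61.3 to 85.9 in SF, where CLDN5 was at 0 in every SF library. Of 7 such genes tested, 4 were called lower in ISF and 6 in SF from 0 to 48 hours, beside 27.4% and 23.1% of all genes. EMCN was called higher in SF from 48 to 96 hours. TEK was 1.56 to 7.22 GeTMM in SF at 10 days (median 3.35), beside 2.11 to 7.68 at 0 hours (median 4.04). The part of endothelial cells in the KDR level was not tested.

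NRP1 (ENSECAG00000020753) was the most abundant receptor of the set. It rose from 2.59 to 9.14 GeTMM at 0 hours (median 5.81) to 18.02 to 160 in ISF (median 73.4) and 24.3 to 150 in SF (median 79.5) at 48 hours, with no overlap, as for 27.2% of all genes in ISF and 21.5% in SF. The log2 fold change was 3.46 in ISF (SE 0.43, limma FDR = 4.4e-10) and 3.37 in SF (SE 0.43, FDR = 1.4e-09). The rise in ISF went on to 96 hours (1.40, SE 0.43, FDR = 0.015), and was not called when both doubted 96 hour libraries were dropped (1.24, FDR = 0.067), nor without the horse Dreamer (1.26, FDR = 0.072) or Ollie (1.33, FDR = 0.060).

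At 96 hours NRP1 was 66.4 to 330 GeTMM in ISF (median 211) and 58.0 to 227 in SF (median 113), higher in ISF in 8 of 8 horses. At 6 days it was 129 to 379 in ISF (median 255) and 13.4 to 324 in SF (median 153), higher in ISF in 6 of 8. The ranges overlapped, and the differences of 0.71 (SE 0.42, limma FDR = 0.31) and 0.89 (SE 0.42, FDR = 0.098) were not called, the second being called with horse in the fit (FDR = 0.024). RimRun had the lowest NRP1 of the ISF group at all 4 times.

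NRP2 (ENSECAG00000016824) had a higher median at each later time in both fluids, though not every step was called. It was 1.68 to 4.35 GeTMM at 0 hours (median 3.33), and its medians at 48 hours, 96 hours, 6 days and 10 days were 13.3, 31.7, 55.2 and 78.0 in ISF and 10.2, 19.8, 31.7 and 67.1 in SF. No culture library overlapped the 0 hour range. The first step was 1.66 in ISF (SE 0.26, limma FDR = 2.5e-07) and 1.38 in SF (SE 0.26, FDR = 1.4e-05). In ISF the steps to 96 hours (1.38, FDR = 7.6e-05) and to 6 days (0.93, FDR = 0.017) were called, and in SF those to 96 hours (0.99, FDR = 0.0026) and from 6 to 10 days (1.19, FDR = 0.0043). The ISF step from 6 to 10 days (0.26, FDR = 0.64) and the SF step from 96 hours to 6 days (0.49, FDR = 0.32) were not called. The ISF step to 6 days was not called without Dreamer (FDR = 0.053), Lurie (0.061) or Ollie (0.095), nor, with 0.066, when the compared groups were fitted alone, and neither was the last SF step in such a limma fit (FDR = 0.16).

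The fluids differed in NRP2 in the middle of the culture. At 96 hours it was up to 62.2 GeTMM in ISF (median 31.7) and 14.1 to 26.8 in SF, RimRun being the lowest in both, and at 6 days 37.9 to 117 in ISF and 7.77 to 44.9 in SF. ISF was higher in 8 of 8 horses at both times, against 8.7% of all genes at 96 hours, and the ranges overlapped through 1 or more libraries. At 6 days the fitted difference was 1.10 (SE 0.25, limma FDR = 0.00056), and it was called in every alternative fit run, with an FDR of up to 0.031. At 96 hours it was 0.66 (SE 0.25, FDR = 0.082, and 0.037 with horse in the fit, where the ISF labels of Dealings and Dreamer are in doubt). At 10 days it was 0.18 (SE 0.27, FDR = 0.70), with ISF higher in 4 of 7 horses.

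Macrophage markers rose on entry into culture, as did the neuropilins and VEGFB. Between the fluids the 7 macrophage genes did not move together. SPP1 was called higher in ISF at 48 and 96 hours and MSR1 from 96 hours on, while GPNMB was called lower at 96 hours and 6 days. The summed level of 7 macrophage genes was 184 to 307 GeTMM at 0 hours, 14796 to 27364 in ISF and 7548 to 13818 in SF at 48 hours, and 47200 to 82485 in ISF and 29897 to 75174 in SF at 10 days. None of the 7 was at 0 throughout a group. Genes whose level was most like that of a member over the 68 libraries, out of 11940 with a unique symbol, also included genes known from macrophages. For NRP1 they included MERTK (Pearson r = 0.96) and DAB2 (0.96), and they were for VEGFB PLBD2 (0.98), APOE (0.97) and PLD3 (0.97), and for NRP2 DAG1, DOCK4 (both 0.94) and PHLDB1 (0.94). The points share horses and culture time, and r is a description.

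The other ligands had less close neighbours. For VEGFA they were ERO1A (r = 0.80), KDM3A (0.74) and AK4 (0.72), for PDGFB SCTR (0.88), SLC49A4 (0.87) and ANKRD34B (0.86), for PDGFC TXNDC16, KANK2 and MANBA (all 0.79), and for HGF SESN1 (0.83), PLA2R1 (0.81) and RBMS2 (0.81). KDM3A, a histone demethylase induced by low oxygen, is also in the hypoxia response list below.

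Other ligands of these families were low. Of PGF, VEGFC, VEGFD, PDGFD and MST1, 3 were tested. VEGFD had a group median above the 0.5 GeTMM of the filter only in ISF at 96 hours and 6 days. As these groups helped it pass the filter, its differences are given as levels only. At 96 hours it was 0.0318 to 3.04 in ISF (median 0.799) and 0 to 0.401 in SF (median 0.250). At 6 days it was 0.0629 to 3.40 in ISF (median 0.594) and 0 to 0.867 in SF (median 0.137). MST1, related to HGF, was higher in ISF at 10 days (0.48, limma FDR = 0.044). The placental VEGF relative PGF did not pass the filter. In the SF library of Lurie at 10 days PGF was 6.59 and VEGFC 21.1 GeTMM, against at most 0.165 and 1.08 in the other 6 libraries of that group.

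Of FLT4, PDGFRA, PDGFRB, MET and MST1R, 3 were tested. MET, the HGF receptor, was 5.15 to 17.3 GeTMM in ISF (median 9.08) and 1.19 to 6.12 in SF (median 4.30) at 10 days, a log2 fold change of 1.13 (SE 0.30, limma FDR = 0.0039). The ranges overlapped. Its fluid difference changed between 48 hours and 10 days as well (1.499, FDR = 0.034). The PDGF receptors entered the tests almost wholly through SF libraries, since PDGFRA reached at most 0.299 GeTMM in any ISF library and PDGFRB passed 0.5 in a single ISF library (0.675), so their difference at 10 days is given as levels only. At 10 days PDGFRB was up to 0.496 in ISF and up to 21.7 in SF (median 0.393), and PDGFRA up to 0.299 in ISF and up to 14.8 in SF (median 0.254), the highest SF value being that of Lurie for both. Both receptors belong to the stromal list, whose sum at 10 days was 0.165 to 50.04 in ISF and 0.473 to 4075 in SF. The part of stromal cells in this difference was not tested.

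Genes that process HGF changed in both directions. Of HGFAC, ST14, SPINT1, SPINT2, PLAU and PLAUR, 5 were tested. PLAUR, the receptor of urokinase, was 99.7 to 241 GeTMM in ISF and 15.9 to 44.6 in SF at 6 days, with no overlap, a log2 fold change of 2.698 (SE 0.29, limma FDR = 5.3e-11), and it was also higher in ISF at 96 hours (1.87) and 10 days (2.09). PLAU, urokinase itself, was higher in ISF at 6 days (1.19, FDR = 9.2e-07). ST14, the protease matriptase that activates HGF, was lower in ISF at 6 days (-0.97, FDR = 0.0052) and 10 days (-1.85, FDR = 3.4e-06), and SPINT2, an inhibitor of HGF activation, was lower at 6 days (-0.66, FDR = 0.010).

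Genes of the semaphorin and plexin list were split as well. Of 15, 13 were tested. None was called between the fluids at 48 hours, beside 1.68% of all genes, and 1 at 96 hours, beside 10.5%. At 6 days 3 were higher in ISF and 3 lower (SEMA3E, PLXNB1 and SEMA4D), beside 16.7% and 13.6% of all genes. At 10 days 3 were higher and 1 lower (SEMA4D), beside 9.95% and 10.8%. SEMA3F, a ligand of NRP2, was higher in ISF at 96 hours (0.85, limma FDR = 0.025), 6 days (1.43, FDR = 2.0e-05) and 10 days (1.59, FDR = 1.9e-05). PLXNA1, a plexin that signals with neuropilins, was higher at 6 days (1.06, FDR = 0.00016), and SEMA3E was lower then (-1.10, FDR = 0.022). The median of the 13 was 0.33 at 6 days and -0.03 at 10 days, beside 0 and -0.02 over all genes.

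Genes of the hypoxia response list were called between the fluids from 96 hours on. Of 17 genes, 16 were tested. None was called at 48 hours and 1, ANKRD37, was higher in ISF at 96 hours. At 6 days 6 were higher and 1 lower, beside 16.7% and 13.6% of all genes. At 10 days BNIP3, P4HA1, SLC2A1, KDM3A, VLDLR and ANKRD37 were higher, beside 9.95%. ADM was called there as well, but is left out because it passed the filter largely through ISF at that time. The median log2 fold change of the 16, ADM included, was 0.26 at 6 days and 0.48 at 10 days, where that of all genes was 0 and -0.02. BNIP3, a mitophagy receptor, was 89.5 to 1029.7 GeTMM in ISF (median 320) and 38.7 to 365 in SF (median 62.5) at 10 days, a log2 fold change of 2.58 (SE 0.38, limma FDR = 9.7e-07). The glucose transporter SLC2A1 was higher by 2.80 (limma FDR = 7.5e-07) and ANKRD37 by 3.01 (FDR = 1.3e-05). The SE behind these FDRs is pooled over 9 groups, some with little spread (BNIP3 was 5.97 to 8.04 GeTMM at 0 hours). The size of these FDRs therefore does not measure the spread of the 10 day groups. ADM, adrenomedullin, was 0.187 to 46.9 GeTMM in ISF (median 8.85) and 0.115 to 10.0 in SF (median 0.286) at 10 days. Its median was above the 0.5 GeTMM of the filter in no other group, so its difference is given as levels only.

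The mean of log2(GeTMM + 1) over these 16 genes was 3.88 to 5.84 in ISF (median 4.58) and 3.67 to 5.32 in SF (median 3.82) at 10 days. The 5 libraries with the highest VEGFA were also the 5 with the highest mean, 5.32 to 5.84, and the next was the ISF library of Catnip at 6 days (5.10). The SF libraries at 48 hours, high in VEGFA, had means of 3.72 to 3.94, near the median over all libraries of 3.87.

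**Figure D4:**
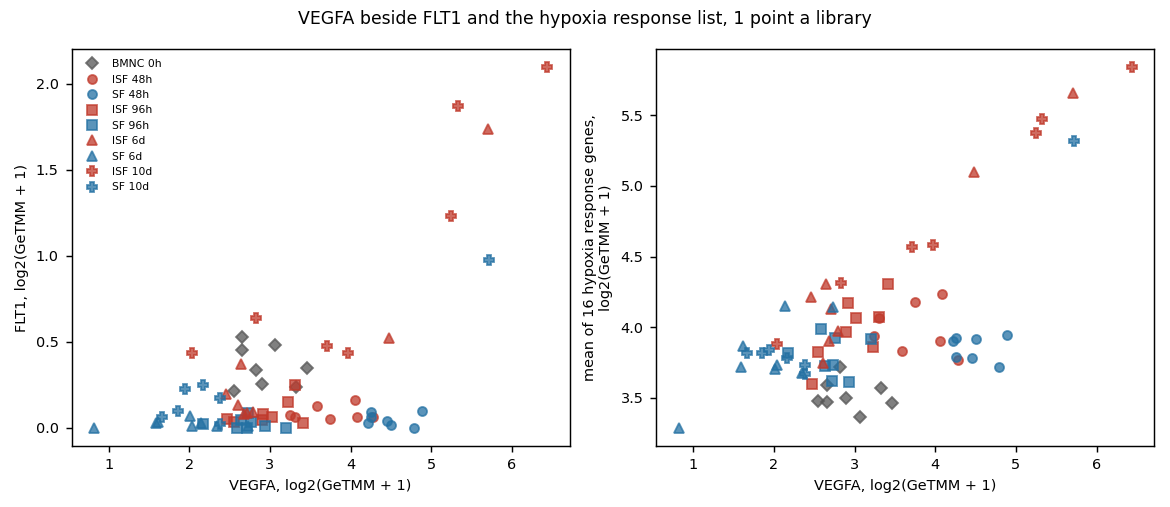
VEGFA (horizontal axis, log2(GeTMM + 1)) beside FLT1 (left) and the mean of 16 hypoxia response genes (right), both on the log2(GeTMM + 1) scale, with 1 point a library and colour and shape giving fluid and time. The 5 libraries with the highest VEGFA are the highest in both panels, and the blue circles of SF at 48 hours have high VEGFA with FLT1 near 0 and a middling hypoxia mean.

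Of 15 other angiogenic factors, 11 were tested. CXCL8, a chemokine for neutrophils that also acts on endothelium, was 25.1 to 141 GeTMM in ISF (median 55.5) and 1.195 to 28.4 in SF (median 12.03) at 10 days, a log2 fold change of 2.81 (SE 0.48, limma FDR = 1.3e-05), and it was higher at 6 days (2.42, FDR = 2.8e-05). ANGPTL4 was higher in ISF at 6 days (1.17, FDR = 0.036). THBS1, an inhibitor of vessel growth held in platelets, was lower in ISF at 96 hours (-2.17, SE 0.58, FDR = 0.0082), at 0.838 to 13.1 against 8.46 to 76.2. TEK, the angiopoietin receptor, was lower at 6 days (-0.88, FDR = 0.0012) and 10 days (-1.08, FDR = 0.00037).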

How the data were processed

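RNA of 68 libraries was analysed. As the authors describe, reads were trimmed, aligned by STAR 2.7.2a (genome build EquCab 3.0) and summed over genes, and the deposited table holds GeTMM values, which resemble RPKM (per kilobase of gene) and carry TMM scaling from edgeR. No column was left unmapped. Whole reads were recovered from the steps of the values, within 0.02 reads for all 24065 genes above 0, which gave the depth.

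Values were tested as log2(GeTMM + 1) with limma 3.58.1 in R 4.3.3 (lmFit, eBayes with a trend) in 1 fit of 9 groups with no term for horse, two-sided. Calls were made at FDR 0.05 (Benjamini-Hochberg) among 14570 genes that reached 0.5 GeTMM in at least 7 libraries. ISF was compared with SF at each time, consecutive times within each fluid, and the fluid difference at 10 days with that at 48 hours and with that at 6 days. The code was tested on simulated data. The authors' own tests used another tool on counts, which were not analysed here. The horse names pair the libraries, since ISF and SF cultures came from the same animals: the deviations of a horse's ISF and SF libraries from their group means had a median correlation of 0.45, 0.46, 0.27 and 0.21 at the 4 times (lowest -0.22, at 96 hours). Alternatives were a pseudocount of 0.1, no filter, horse as block, only the groups compared, median-of-ratios scaling, library weights, voom on recovered reads, and leaving out libraries or horses. Python 3.11.15, numpy 2.4.6, pandas 2.3.3 and matplotlib 3.10.9 were used.

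The members and the gene lists were chosen with earlier results of these data known. Named genes are all members, the 3 genes most correlated with each tested member over the 68 libraries, and, of 6 pathway lists, up to 4 genes called between the fluids at an absolute log2 fold change of 1 or more, plus the ligands, receptors and activators of the members. The stromal, macrophage, endothelial, platelet, T cell, B cell and neutrophil precursor lists are reported beside the members they bear on. No sequences or coordinates are given. Of the genes this rule names, 1 is not reported here.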

Additional observations from a re-analysis of the deposited data

Results flagged for a closer look

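Within groups, the highest or lowest library was compared with its nearest neighbour by Dixon's test on log2(GeTMM + 1), in 78 combinations of a member and a group. Of these, 11 passed. Chance alone flags about 1 in 20, but the 11 cannot be set against that rate. In the KDR groups flagged the outcome was fixed by all other libraries being at 0, and some libraries recur over several members.

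Lurie's SF library at 10 days was set apart for VEGFA, at 51.8 GeTMM against 4.23 for the next, and for FLT1, at 0.969 against 0.188. Moon's SF library at 6 days was set apart for 3 members, with VEGFB at 769 against 275, NRP1 at 13.4 against 98.0 and NRP2 at 7.77 against 27.0. Moon's ISF library at 10 days was low for VEGFB, at 147 against 228. Flash's ISF library at 6 days was high for FLT1, at 2.33 against 0.432.

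For KDR, single libraries stood apart because all others of the group were at 0: Dreamer in ISF at 48 hours (0.0332) and at 10 days (0.0204), RimRun in SF at 48 hours (0.0194) and Flash in SF at 6 days (0.0878), each on 2 to 10 reads.

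VEGFA was the only member called for a change of the fluid difference between 2 times, by 2.36 on the log2 scale from 48 hours to 10 days. The call was lost on leaving out Catnip, Dealings, Dreamer, Ollie or RimRun, and when the compared groups were fitted alone.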

How the results depend on the processing

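Among refits of called member values, 444 kept direction and call and 24 lost the call. Among refits of values that were not called, 413 kept direction and side, 8 became called and 11 reversed. With horse as replicate block, the number of members called became 1 at 48 hours and 2 at 96 hours between the fluids, and 7, 1 and 2 in SF from 48 to 96 hours, 96 hours to 6 days and 6 to 10 days, and it changed no other count by over 1.5 times. The doubted 96 hour ISF labels of Dealings and Dreamer enter that fit. With only the groups compared, the counts were 1 at 48 hours and 0 at 10 days between the fluids, 5, 1 and 1 in the 3 later ISF intervals, 0 in SF from 6 to 10 days, and 0 for the change of the fluid difference from 48 hours to 10 days. With library weights they were 2 at 96 hours, 2 in ISF from 6 to 10 days, and 7 and 2 in SF from 48 to 96 hours and on to 6 days. Without Moon's SF library at 6 days they were 2 at 96 hours and 1 in SF from 96 hours to 6 days. Without a filter they were 2 at 10 days and 1 in ISF from 6 to 10 days, FLT1 being tested there.

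Leaving out 1 horse at a time, the members called between the fluids numbered 0 at 48 hours and between 0 and 1 at 96 hours, between 1 and 3 at 6 days and between 0 and 1 at 10 days. They numbered 5 to 6, 2 to 4, 1 to 3 and 0 to 2 in the ISF intervals, 6 to 7, 3 to 5, 0 and 1 in the SF intervals, 0 to 1 for the change in fluid difference over the whole culture and 0 for its last step. Combinations with 1 direction in every horse numbered 8 to 9.

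The reversed values were of differences that were not called. PDGFB at 10 days was -0.15 without Lurie's SF library (chosen after seeing the data) and -0.0199 by voom. The others came from leaving out 1 horse. The 48 hour difference then lay between -0.0098 (without RimRun) and 0.234 for VEGFB and between -0.0634 (without Dreamer) and 0.281 for NRP1. That of HGF at 96 hours lay between -0.168 and 0.013 (without Lurie). At 10 days PDGFB lay between -0.202 (without Lurie) and 0.146, and NRP1 between -0.288 and 0.0687 (without Dealings). The causes were not tested. Another scaling moved the median of all genes by at most 0.03. FLT1, KDR and PDGFC rest on few reads, which limits their precision.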
